A study of Homo sapiens with 12 samples.

Results

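The genes described here encode TFIIIA (GTF3A) and the 6 subunits of TFIIIC (GTF3C1 to GTF3C6), 7 of the 19305 transcript accessions counted in the series. The group was chosen by a measured value: GTF3A had been seen to rise with the eIF2A siRNA label in HEK293T cells, and the TFIIIC subunits were added as its partners. All 7 genes passed the filter on low counts in each comparison below.

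RNA polymerase III makes 5S ribosomal RNA, transfer RNAs and other short RNAs. TFIIIA, a protein of C2H2 zinc fingers, binds inside the 5S rRNA gene and is used for that gene class, and it also binds 5S rRNA itself. TFIIIC is then recruited, whereas at tRNA genes it binds the internal A and B boxes directly. TFIIIC in turn places TFIIIB, which brings in the polymerase.

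The series counted ribosome-protected mRNA fragments (footprints) in 12 libraries, to compare cells with and without knockdown of the initiation factor eIF2A. HEK293T, a line from human embryonic kidney, gave 8 libraries, all exposed to sodium arsenite, an oxidative stressor, and carrying either control siRNA or eIF2A siRNA, with immunoprecipitation (IP) of CBP80 or of eIF4E, the nuclear and cytoplasmic cap-binding proteins. H9, a line of human embryonic stem cells, gave the other 4, with control shRNA or eIF2A shRNA, no IP and no arsenite in the labels. The 6 groups had 2 libraries each, numbered set 1 and set 2. The arsenite dose and time and the siRNA and shRNA sequences were not stated in the labels. Nor do the labels say whether a set is a separate culture, so a p-value here reflects only how far these libraries differ, possibly for technical reasons. Footprint counts follow both mRNA level and translation, since mRNA-seq was not used here.

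Coding reads ran from 4331459 to 5775177 per library in HEK293T and from 937990 to 1878700 in H9. For each siRNA label and set, the CBP80-labelled and eIF4E-labelled libraries differed by about the sampling noise of their counts (chi-square per degree of freedom 1.01 to 1.03), while different sets of a group lay at 3.95 to 5.52, so the counts of both IP labels were summed into 4 HEK293T libraries for the siRNA and cell line comparisons. The 4 H9 libraries likewise form 2 near-identical pairs, since the shRNA labels of a set lay at 1.04 and 1.07. The knockdown label went with fewer EIF2A footprints in 1 of 4 sets. In HEK293T set 2 it stood at 46.7 counts per 1000000 coding reads (CPM) against 83.5 in control, but in set 1 at 96.0 against 83.2, and in H9 at 110 against 103 and 68.2 against 60.9. Directions below therefore refer to the library labelled eIF2A siRNA or shRNA. Of 8 pluripotency markers 7 were counted. Their summed level was 4487 to 4785 CPM in H9 and 58.4 to 69.8 CPM in HEK293T, with POU5F1 listed at 0 in all libraries. The 6 fibroblast markers summed to 267 to 438 CPM in H9, nearly all of it COL1A1 and COL1A2, with DCN and LUM at 0, and to 18.4 to 22.1 CPM in HEK293T. The 9 germ layer markers summed to 1.07 to 12.2 CPM in H9, with SOX17 and 5 others at 0.

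The promoter windows of GTF3A and GTF3C1 are shown because these members had the largest difference up and the largest difference down between siRNA labels. Both hold the palindromic core CGCATGCG of the factor NRF1, printed in capitals together with the ETS-family core CCGGAAG. The windows run from 250 bases before to 10 bases after the RefSeq gene start in the assembly GRCh38.p14. That of GTF3A lies on the plus strand at chr13:27424369-27424628 and that of GTF3C1 on the minus strand at chr16:27549904-27550163.
GTF3A: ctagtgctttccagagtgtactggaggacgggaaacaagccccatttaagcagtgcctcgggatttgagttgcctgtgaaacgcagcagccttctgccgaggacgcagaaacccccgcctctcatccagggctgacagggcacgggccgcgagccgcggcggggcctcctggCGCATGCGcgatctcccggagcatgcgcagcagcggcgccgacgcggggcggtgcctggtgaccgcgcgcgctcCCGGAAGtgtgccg
GTF3C1: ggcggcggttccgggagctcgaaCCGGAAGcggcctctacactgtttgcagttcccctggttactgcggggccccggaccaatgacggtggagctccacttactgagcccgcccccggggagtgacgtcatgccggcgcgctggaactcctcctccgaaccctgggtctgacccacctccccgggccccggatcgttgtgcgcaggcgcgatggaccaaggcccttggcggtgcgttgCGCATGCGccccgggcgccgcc
The NRF1 core begins 78 bases before the start in GTF3A and 12 bases before it in GTF3C1. The ETS core begins 4 and 227 bases before the start, in that order. Searched on both strands from 250 bases before to 50 after the start, the NRF1 core was in 2 of 8 windows of the 7 genes and in 2.02% of all 35116 windows. The ETS core was in 6 of the 8 and in 10.3% of all, and the YY1 core AAGATGG, was in 2 of the 8 (GTF3C2 and GTF3C6) and in 5.84% of all. Over the 22199 windows of protein-coding genes, the shares were 2.49% for NRF1, 12.8% for ETS and 6.04% for YY1. The motifs were picked after the member sequences had been read, and a match is not a binding site.

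TFIIIA had more footprints in the HEK293T libraries labelled eIF2A siRNA. GTF3A (NM_002097 in the files) stood at 95.5 CPM (set 1) and 80.9 CPM (set 2) in the control CBP80 libraries and at 87.8 and 81.0 CPM in the control eIF4E libraries. With the eIF2A siRNA label it stood at 186 and 145 CPM with CBP80 and at 193 and 153 CPM with eIF4E. In each set the labelled libraries lay above the controls, and the near-identical IP labels add no replicate. With IP labels summed, the ratio of labelled to control library was 2.06 in set 1 (95% counting interval 1.91 to 2.23) and 1.84 in set 2 (1.69 to 2.01). Group means were 169 ± 28.2 CPM against 86.3 ± 7.60 CPM (SD, n = 2 summed libraries each), and the fitted log2 difference was 0.88 ± 0.14 (SE). Leaving out the set 1 labelled library, where EIF2A was not lower, gave 0.75.

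This difference chose the gene, so it is a description and no p-value is given. In the same comparison 12.4% of all 12331 genes tested passed the edgeR threshold, 6.15% higher and 6.29% lower. The count of members past it, 1 of 7 (GTF3A), follows from that choice and nothing is read from it. Without the set 2 control library, 75 genes in place of 1534 passed. Reads outside coding sequences moved with the same label: their share of uniquely placed reads was 51.1% against 40.0% in control in set 1 and 42.3% against 35.2% in set 2, and their part in the difference was not tested. The span of GTF3A overlaps that of MTIF3, a mitochondrial initiation factor, whose own ratios were 0.985 (0.871 to 1.11) in set 1 and 1.23 (1.09 to 1.39) in set 2. GTF3A also has 6 annotated pseudogenes, and reads that fit more than 1 place were not counted, so its level may be undercounted.

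Among the TFIIIC subunits in HEK293T, the difference between siRNA labels was largest for GTF3C1. GTF3C1, the large subunit that takes part in binding the B box, had fewer footprints with the eIF2A siRNA label. It stood at 909 and 846 CPM in control CBP80, at 893 and 853 CPM in control eIF4E, at 745 and 678 CPM in labelled CBP80, and at 774 and 692 CPM in labelled eIF4E. In each set the labelled libraries lay below the controls, where again the IP labels add no replicate. The summed ratios were 0.842 (0.817 to 0.868) in set 1 and 0.807 (0.782 to 0.833) in set 2, and the fitted log2 difference was -0.37 ± 0.14. DESeq2 and the fit with the set number as a replicate block counted it past the threshold and edgeR's unblocked fit did not, from which nothing is read.

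The other 5 TFIIIC subunits differed by less. GTF3C3, a subunit of TPR repeats that contacts TFIIIB, stood at 253 CPM in both control sets and at 291 and 287 CPM with the eIF2A siRNA label. GTF3C4, for which acetyltransferase activity has been described, stood at 120 and 117 CPM in control and at 135 and 132 CPM with the label. For both genes the ratios of labelled to control library were 1.12 to 1.15 on total coding reads. The fitted log2 differences with TMM scaling, edgeR's correction for library composition, were smaller, 0.10 for GTF3C3 and 0.08 for GTF3C4, both below their SEs of 0.14 and 0.13. GTF3C2, a subunit that works beside GTF3C1 at the B box, stood at 189 and 186 CPM in control and at 205 and 193 CPM with the label. GTF3C5, a subunit that contacts the A box side of the gene, stood at 75.2 and 77.2 CPM in control and at 80.8 and 78.0 CPM with the label. The direction of both genes depended on scaling: the fitted log2 difference was 0.00 for GTF3C2 and -0.03 for GTF3C5 with TMM scaling. With library sizes alone it was 0.08 and 0.06, beside a median of 0.09 for all genes. GTF3C6, the smallest subunit, stood at 131 and 160 CPM in control and at 136 and 148 CPM with the label, so its groups overlapped and its ratio was 1.04 in set 1 and 0.920 in set 2. The median log2 difference of all 7 members was 0.00, as was that of all genes tested.

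**Figure D1:**
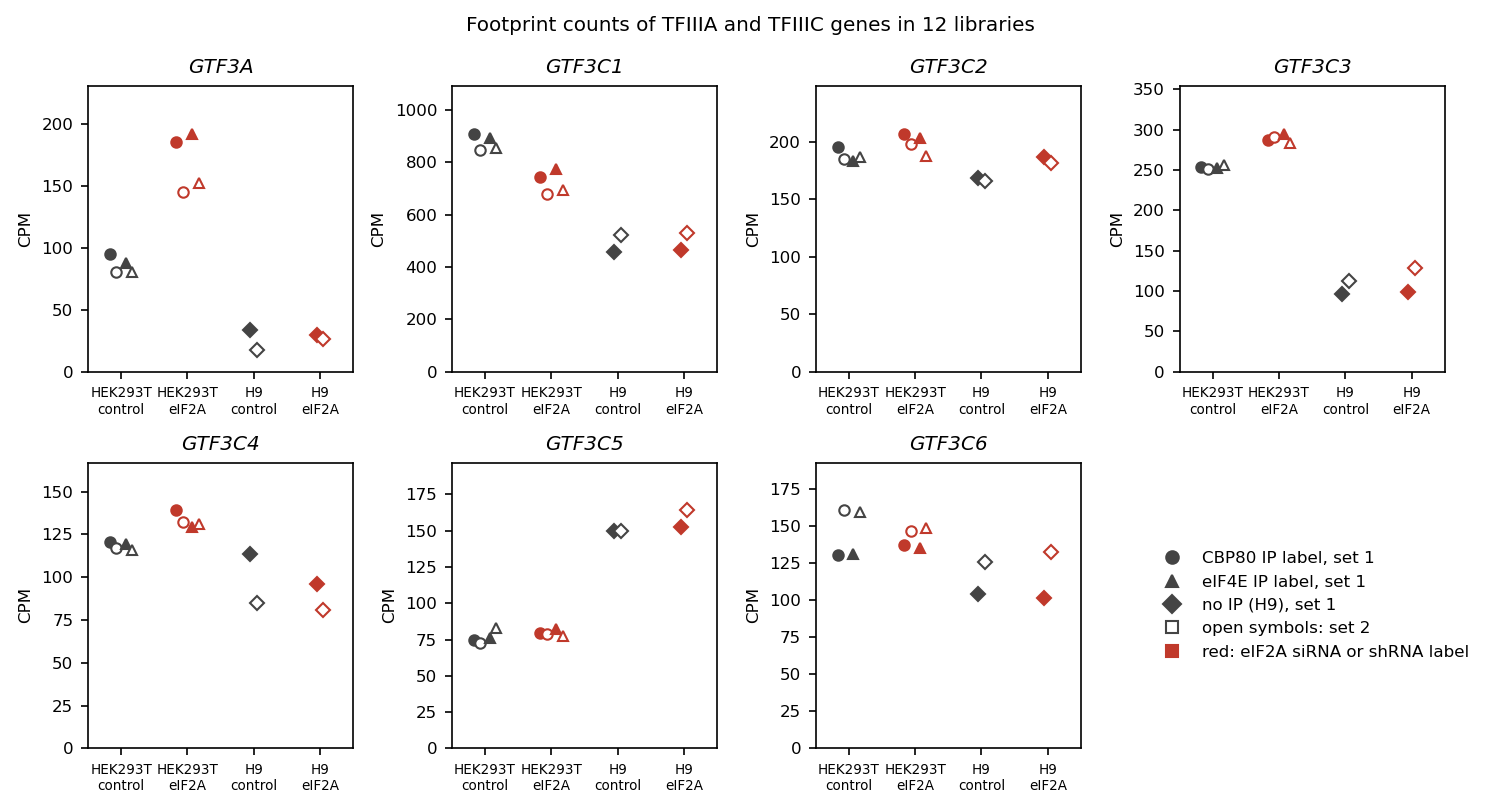
Footprints on each gene in counts per 1000000 coding reads (CPM) (vertical axis, from 0, own scale per gene) by cell line and knockdown label (horizontal axis). Each point is 1 library; circles are CBP80 and triangles eIF4E IP labels, diamonds are H9, filled is set 1, open is set 2, and red is the eIF2A label. GTF3A in HEK293T runs from 80.9 to 95.5 CPM in control and from 145 to 193 CPM with the label.

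Within TFIIIC, the share of footprints on GTF3C1 was lower with the siRNA label. Of the 18990 and 15604 TFIIIC footprints in the control sets, 54.0% (exact binomial interval 53.3 to 54.7%) and 51.7% (50.9 to 52.5%) lay on GTF3C1. With the label the shares were 47.2% (46.5 to 48.0%) and 45.0% (44.3 to 45.8%). The share on GTF3C3 was 15.2 and 15.4% in control and 18.1 and 18.9% with the label. A lower GTF3C1 share raises the other shares together. Those of GTF3C2 (11.3% in both control sets, 12.8 and 12.7% with the label), GTF3C4 and GTF3C5 were also higher in each set. That of GTF3C6 was higher in set 1 only. No gain particular to GTF3C3 is read from its share. GTF3A footprints per TFIIIC footprint, a ratio that needs no library size, were 5.49 and 4.93% in control and 11.8 and 9.80% with the label. This restates the difference that chose the gene, and the lower GTF3C1 counts in the divisor raise it. Long coding sequences collect more footprints, so these shares are not shares of protein.

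In H9, none of the 7 genes differed detectably between shRNA labels. Over all genes, the shRNA libraries of a set differed by little more than sampling noise (chi-square per degree of freedom 1.04 and 1.07). EIF2A footprints were not lower with the shRNA label in either set. The H9 values therefore cannot show whether eIF2A knockdown alters these genes. GTF3A stood at 33.6 CPM (53 reads) and 17.9 CPM (27 reads) in control and at 29.8 CPM (56 reads) and 26.7 CPM (25 reads) with the eIF2A shRNA label, so the groups overlapped. The ratio was 0.887 in set 1 (counting interval 0.598 to 1.32) and 1.49 in set 2 (0.830 to 2.67). The fitted log2 difference was 0.14 ± 0.33 (edgeR, adjusted p = 1). The HEK293T values chose the gene, and whether the difference between labels varies with the cell line was not tested.

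GTF3C1 in H9 stood at 458 and 523 CPM in control and at 466 and 529 CPM with the label. Its ratios were 1.02 (0.921 to 1.12) and 1.01 (0.901 to 1.13), with intervals that included 1. GTF3C4 stood at 113 and 84.7 CPM in control and at 95.8 and 81.0 CPM with the label, and its ratios of 0.844 (0.683 to 1.04) and 0.957 (0.710 to 1.28) lay below 1 where those in HEK293T lay above it. GTF3C2 stood at 168 and 165 CPM against 186 and 181 CPM with the label, and GTF3C5 at 150 CPM in both controls against 152 and 164 CPM. For GTF3C2 and GTF3C5 each set's interval included 1. GTF3C3 (97.0 and 112 CPM against 99.0 and 129 CPM) and GTF3C6 (104 and 126 CPM against 102 and 132 CPM) followed the set rather than the shRNA label. By edgeR 0 of 7 members and 0% of all 9751 genes passed, with 84 genes at an unadjusted p under 0.05 and 0 genes by DESeq2. The members' SEs were 0.13 to 0.33 on the log2 scale.

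**Figure D2:**
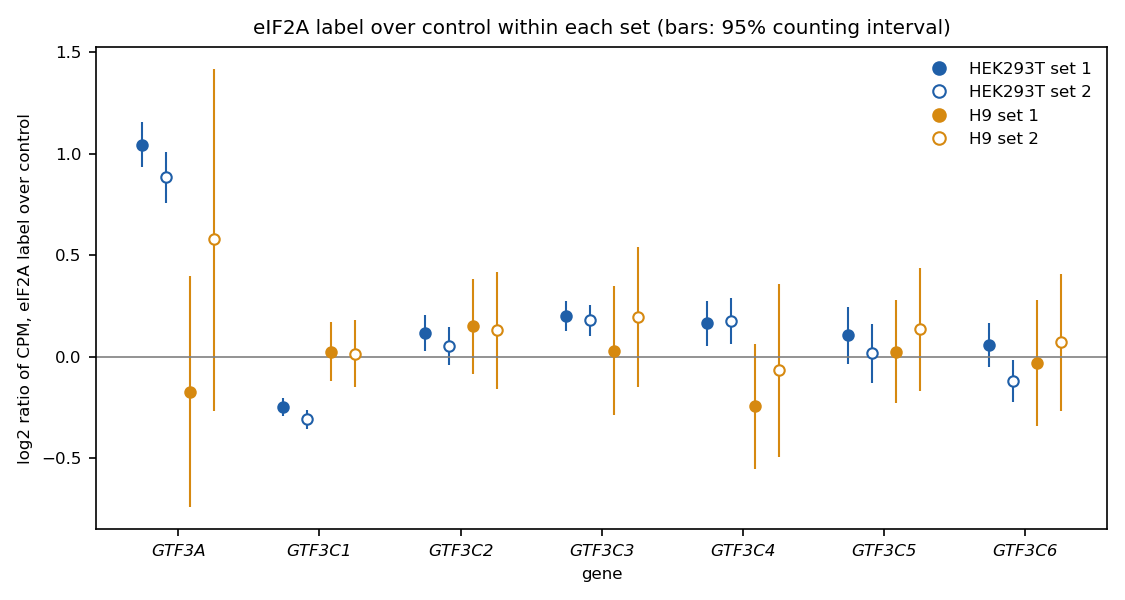
Log2 ratio of CPM in the library labelled eIF2A siRNA or shRNA over its control (vertical axis) for each gene (horizontal axis), 1 point per set, with 95% counting intervals. Blue is HEK293T with IP labels summed and orange is H9; filled is set 1 and open is set 2. GTF3A lies at 1.04 and 0.88 in HEK293T and at -0.17 and 0.58 in H9, where the intervals are wide.

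Between CBP80-labelled and eIF4E-labelled libraries no member differed detectably. Since the libraries of a pair differed by about sampling noise over all genes, they may be 1 library sequenced or deposited 2 times. The labels leave this unsettled, and in that case these values say nothing of the cap-binding proteins. Of 28 ratios of eIF4E over CBP80 libraries (7 genes in 4 pairs), 0 had a counting interval that left out 1, and they ran from 0.920 to 1.15. Fitted log2 differences ran from -0.05 for GTF3C2 to 0.06 for GTF3C5, with SEs of 0.07 to 0.10. By edgeR 0 of 7 members and 2 of 11778 genes (0.017%) passed, and with each pair as a block 6 genes and still 0 members.

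Between the cell lines, 6 members had fewer footprints in H9 and 1 had more. H9 control shRNA was set against HEK293T control siRNA (n = 2 each), and cell line, arsenite, IP and preparation cannot be told apart. All 7 members passed in edgeR, beside 71.8% of 12307 genes tested, with 34.5% higher and 37.3% lower in H9. The members' median log2 difference was -0.50 and that of all genes -0.07 with TMM scaling. With library sizes alone the median of all genes was 0.09, and each member kept its direction.

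GTF3A, GTF3C3 and GTF3C1 were lower in H9 by the larger amounts. GTF3A averaged 25.7 ± 11.1 CPM in H9 and 86.3 ± 7.60 CPM in HEK293T control (log2 difference -1.90 ± 0.21, edgeR adjusted p = 7.16e-19). Its difference was -1.51 without the H9 control library of set 2 and -2.39 without that of set 1. In order of level, its libraries ran from HEK293T labelled eIF2A set 1 (189 CPM) and set 2 (149 CPM) through control set 1 (91.7 CPM) and set 2 (80.9 CPM) to the 4 H9 libraries, whose counting intervals overlapped in part. GTF3C3 averaged 105 ± 11.0 CPM in H9 and 253 ± 0.264 CPM in HEK293T (-1.43 ± 0.16, edgeR adjusted p = 2.04e-18). GTF3C1 averaged 491 ± 46.0 CPM in H9 and 875 ± 36.7 CPM in HEK293T (-0.99 ± 0.14, edgeR adjusted p = 5.96e-12).

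GTF3C5 was the 1 member higher in H9. It averaged 150 ± 0.0574 CPM there and 76.2 ± 1.41 CPM in HEK293T (log2 difference 0.82 ± 0.16, edgeR adjusted p = 9.12e-07). Its share of TFIIIC footprints was 12.9 to 13.8% in the 4 H9 libraries and 4.50 to 5.13% in HEK293T, while that of GTF3C3 was 8.90 to 10.6% in H9 and 15.2 to 18.9% in HEK293T. The make-up of TFIIIC footprints thus separated the lines more than the knockdown labels for these subunits. GTF3A, GTF3C1, GTF3C3 and GTF3C5 passed under all 11 alternatives.

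The remaining subunits were lower in H9 by less. GTF3C6 averaged 115 ± 15.4 CPM in H9 and 146 ± 20.9 CPM in HEK293T (log2 difference -0.50, edgeR adjusted p = 0.00285). The difference of GTF3C4 was -0.41 (adjusted p = 0.0174 in edgeR) and that of GTF3C2 was -0.33 (adjusted p = 0.0445 in edgeR). These calls were less stable: that of GTF3C2 was lost in 9 of 11 alternatives, that of GTF3C4 in 6 and that of GTF3C6 in 2. Without the HEK293T control library of set 2, all 3 were lost (edgeR adjusted p = 0.134, 0.0794 and 0.159).

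**Figure D3:**
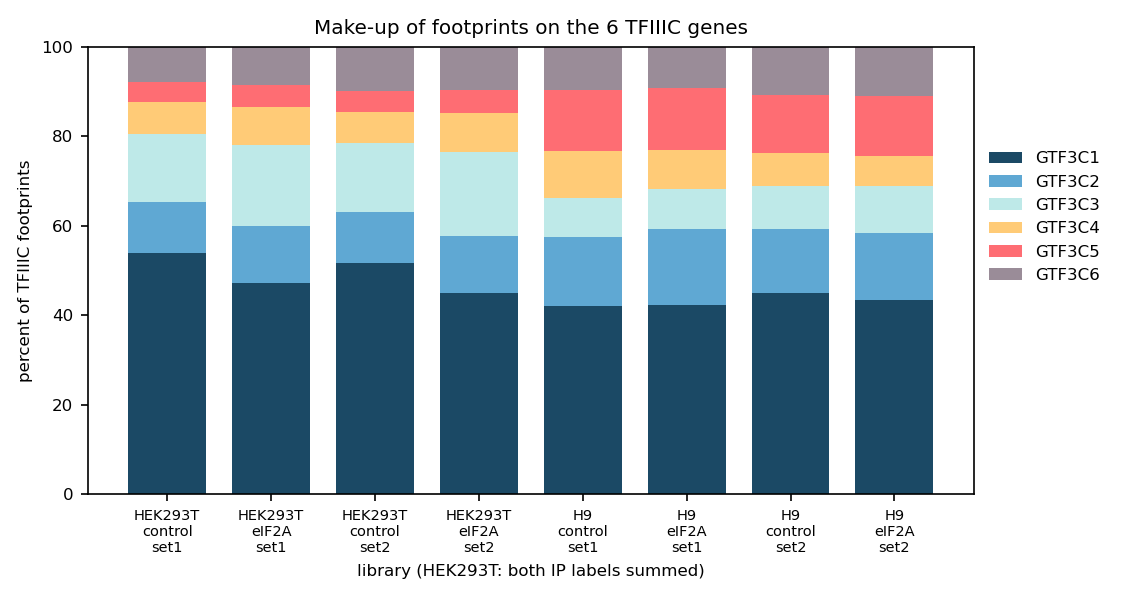
Percent of all TFIIIC footprints (vertical axis, stacked to 100) on each of the 6 subunit genes in each library (horizontal axis, IP labels summed in HEK293T). The GTF3C1 part is 54.0 and 51.7% in HEK293T control and 47.2 and 45.0% with the eIF2A siRNA label, and the GTF3C5 part is 12.9 to 13.8% in H9.

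In other parts of the polymerase III machinery, single genes differed with the eIF2A siRNA label in HEK293T, and the counts below stand beside 12.4% of all genes past the threshold. For TFIIIB 0 of 4 genes passed in edgeR and for the polymerase's own subunits 0 of 11, with median log2 differences of 0.20 and -0.02 beside 0.00 for all genes. The genes of smallest p in these lists were BDP1 (0.35, adjusted p = 0.0806 in edgeR), which holds TFIIIB on DNA, and POLR3K (-0.31, adjusted p = 0.115 in edgeR). Of the 7 subunits shared with other polymerases, POLR2K rose, from 88.1 ± 2.32 to 123 ± 12.8 CPM (log2 difference 0.39, edgeR adjusted p = 0.0414).

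Among the 4 regulators, MAF1, the repressor of RNA polymerase III, rose from 28.5 ± 0.502 to 41.6 ± 5.34 CPM (log2 difference 0.45, edgeR adjusted p = 0.0313). SNAPC1, of the SNAPc complex that serves U6-type promoters in place of TFIIIC, rose by 0.45 (edgeR adjusted p = 0.0288) and was the 1 of 7 genes of its list to pass. Of the 5 genes for the 5S rRNA particle, which include its ribosomal proteins RPL5 and RPL11, 0 passed. Of 18 tRNA maturation genes tested, 1 rose and 3 fell. XPOT, the tRNA exporter, rose by 0.49 (edgeR adjusted p = 0.0113), TSEN34, of the splicing endonuclease, fell by 0.64 (edgeR adjusted p = 0.00558), and POP5, of RNase P, fell by 0.43 (edgeR adjusted p = 0.0260). For comparison, 0 of 12 polymerase I factors passed, and of 16 general factors of polymerase II, 1 rose and 2 fell, among them ERCC2 (-0.67) of TFIIH. Without the control library of set 2, none of the 7 genes named here as past the threshold passed (edgeR adjusted p = 0.151 for ERCC2 and 0.340 to 0.569 for the others). Of 12 alternatives, POLR2K, MAF1 and POP5 each lost the call in 6, SNAPC1 in 7, TSEN34 in 5, XPOT in 4 and ERCC2 in 1. With library sizes alone 0 tRNA maturation genes fell and BDP1 rose. The medians of the polymerase subunits and of tRNA maturation turned positive (0.07 and 0.08), beside 0.09 for all genes on that scaling. In H9, 0 genes of these 9 lists passed between shRNA labels by edgeR or DESeq2.

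Between the cell lines, the polymerase's own subunits changed in both directions, with 1 of 11 higher and 7 lower in H9. The counts here and for the lists that follow stand beside 34.5% of all genes higher and 37.3% lower. POLR3G, the paralogue known from pluripotent cells, averaged 103 ± 13.8 CPM in H9 and 20.04 ± 1.99 CPM in HEK293T (log2 difference 2.20 ± 0.18, edgeR adjusted p = 3.93e-32). POLR3GL, its counterpart in differentiated cells, averaged 3.20 ± 2.65 CPM in H9 and 33.1 ± 0.00172 CPM in HEK293T (-3.50 ± 0.36, edgeR adjusted p = 1.07e-21). Its H9 mean lay near the 1.90 to 1.99 CPM that a count of 0 allows in these control libraries, so the size of this difference is uncertain. The paralogues thus lay in opposite directions.

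TFIIIB had 2 of 4 genes lower in H9, BDP1 (-3.23) and BRF2 (-1.38), the factor of U6-type promoters, while BRF1 (-0.05) and TBP (-0.02) did not pass. For the 5S rRNA particle 3 of 5 were lower, RPL5 by a log2 difference of -2.46, RPL11 by -1.90 and RPF2 by -1.66, with a list median of -1.66. Of the 4 regulators, 1 was lower in H9, MYC (-1.77), which activates polymerase III transcription. RB1 (1.17), which restrains it, and SSB (0.32) were the 2 higher, and the list median was 0.07. Polymerase I factors (0 higher and 8 lower of 12) and general factors of polymerase II (1 higher and 8 lower of 16) also had more genes lower than higher. With library sizes alone these counts were 0 and 7, and 2 and 7, and that of the polymerase III subunits was 2 higher and 7 lower.

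**Figure D4:**
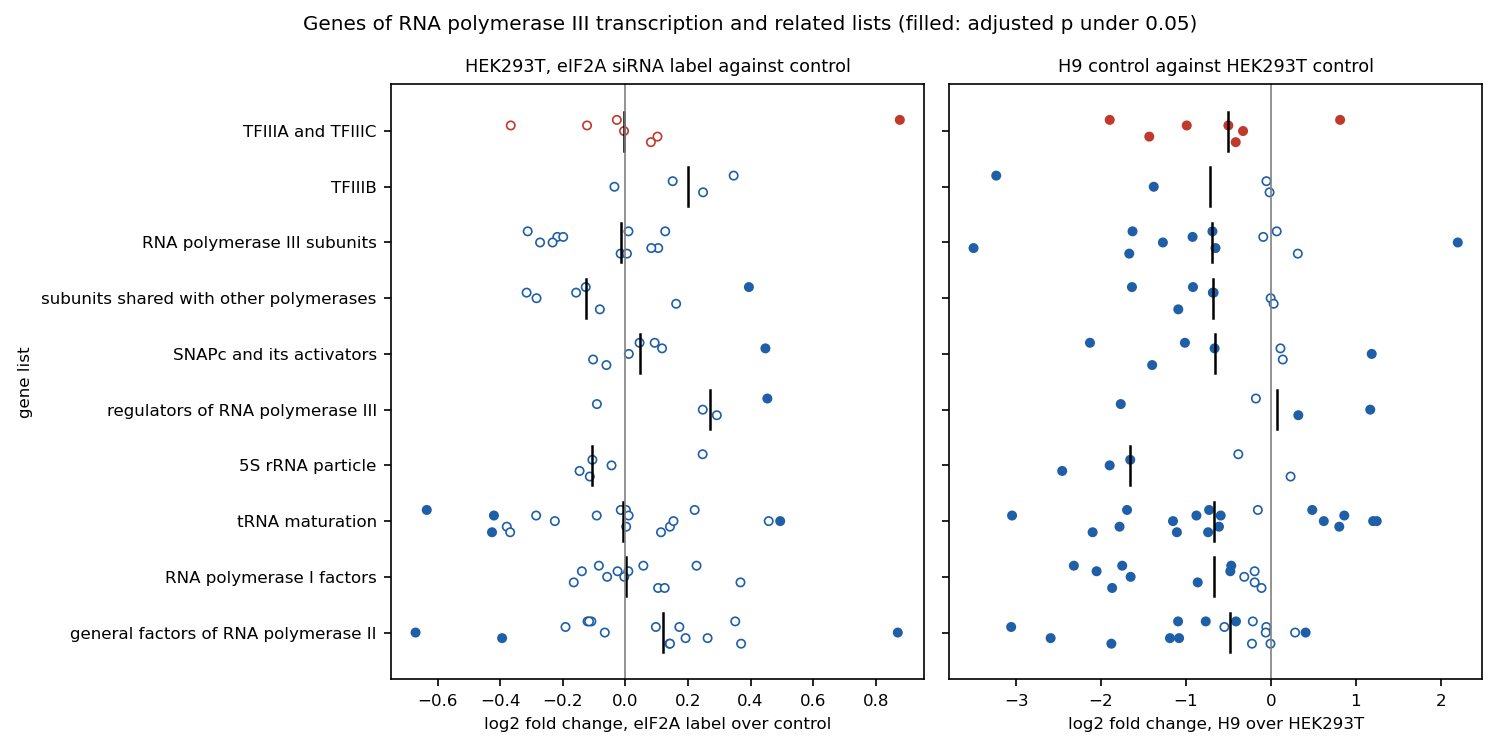
Log2 fold change (horizontal axis) of each tested gene in 10 lists (vertical axis), in HEK293T for the eIF2A siRNA label over control (left) and for H9 over HEK293T controls (right); red is TFIIIA and TFIIIC, filled points have an edgeR adjusted p under 0.05, and the black bar is the list median. On the left GTF3A stands at 0.88 with the other members between -0.37 and 0.10; on the right POLR3G (2.20) and POLR3GL (-3.50) mark the ends of the polymerase list.

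The genes whose profile was most like that of GTF3A were MIER1, PAXBP1, LATS1, CAST and BCOR, by Pearson r of log2(CPM + 1) over 8 columns among 7101 genes with a mean of at least 20 CPM. Their r was 0.990 to 0.994, a description over columns that share sets and cell lines. MIER1, for example, stood at 105 and 83.9 CPM in HEK293T control, at 171 and 134 CPM with the eIF2A siRNA label and at 33.1 to 50.03 CPM in H9. The closest TFIIIC subunit was GTF3C3 (r = 0.926, rank 750), and GTF3C5 ran opposite (r = -0.91).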

How the data were processed

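The authors deposited raw read counts for each coding sequence, under RefSeq accessions. Per the submitters' processing notes, cutadapt, STAR 2.5.2b and hg19 were used; no source used here names the counter, its strand setting, the annotation or rRNA removal, so reads of genes that overlap on opposite strands may be mixed. Rows naming no gene held 87.5 to 89.5% of counts in HEK293T and 96.2 to 96.5% in H9 and stayed out of library sizes. Of 19305 accessions, 18888 were named through RefSeq's GRCh38.p14 tables, which also gave the promoters.

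Tests used edgeR 4.0.16 in R 4.3.3 (filterByExpr, TMM, robust quasi-likelihood fit, Benjamini-Hochberg, threshold 0.05), after the code was tested on simulated data. Each fit covered all genes that passed the filter. CPM and ratios use total coding reads. Intervals are 95% and cover counting error only, and a count of 0 allows up to 3 counts, or 0.519 to 3.20 CPM by library. The IP labels of a siRNA label and set were taken as pairs in the ratios and in the block alternative. Their deviations from the group means correlated at 0.576 and 0.659. The unaltered fit between IP labels allowed for the siRNA label but not for the pair.

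Members, gene lists and tests were chosen with earlier results of these data known. The rule for named genes takes all members, EIF2A, per list up to 3 largest changes past the threshold with a mean of at least 5 CPM (otherwise the smallest p), and the 5 profiles most like GTF3A; the overlapping MTIF3, BRF1 and TBP were named after their values were seen. Alternatives were RLE scaling, library sizes alone, other count filters, DESeq2 1.42.0, the set number or IP pair as a replicate block, and leaving out each library. Levels per coding length were not analysed here, so no level is compared between genes.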

Additional observations from a re-analysis of the deposited data

Results flagged for a closer look

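For GTF3C1 and GTF3C4, the ratios on total coding reads lay on opposite sides of 1 in the HEK293T sets and in the H9 sets. The difference between cell lines was not tested. The share of all genes with this pattern was not counted, so nothing is read from it. GTF3C1 had fewer footprints with the eIF2A siRNA label in both HEK293T sets. Its H9 ratios, 1.02 and 1.01, lay barely above 1, so its mean log2 ratio was lower in HEK293T by a difference of -0.298. GTF3C4 showed the reverse, with a difference of 0.3233. With TMM scaling its fitted log2 difference in HEK293T was 0.08 ± 0.13 (SE). The H9 ratios of both genes had counting intervals that included 1.

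Reads outside coding sequences, which enter no comparison of genes, took a larger share of uniquely placed reads in the HEK293T libraries labelled eIF2A siRNA. The share was 51.06% against 39.98% in control in set 1 and 42.33% against 35.24% in set 2.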

How the results depend on the processing

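Alternatives were run for the members, EIF2A, the named genes and the counts. No value past the threshold in its unaltered fit changed direction in them. EIF2A, which passed in no unaltered fit, ranged from -0.88 to 0.06 between siRNA labels and from -0.57 to 0.16 between cell lines. Between siRNA labels in HEK293T, the count of genes past the threshold (1534 of 12331) was 735 with DESeq2, 473 and 383 with the 8 libraries kept separate (CBP80-labelled and eIF4E-labelled), and 75 to 2086 when 1 library was left out. With library sizes alone 1032 genes passed, 740 higher and 292 lower, against 758 and 776. With the set number as a replicate block 2993 passed. Libraries of 1 set deviated together (correlation 0.458 in HEK293T and 0.471 in H9), but with 2 pairs, and no label that a set marks a culture, the numbers were not taken to pair the samples. Members counted past the threshold were 1 (GTF3A, chosen on this contrast), and 2 with DESeq2 and with the replicate block, which add GTF3C1. The log2 difference of GTF3A was 0.75 to 0.99 over 12 alternatives and that of GTF3C1 -0.40 to -0.28. GTF3C6 moved from -0.12 to -0.28 without the control library of set 1 and to 0.04 without that of set 2. In H9, 0 genes passed under each of 10 alternatives; with a mean count of at least 50, 6 of 7 members were tested, GTF3A not among them. Between IP labels, the count of genes (2) was 1 with library sizes alone, 0 with a mean count of at least 50, 6 with the replicate block and 0 to 3 with a library left out, and 0 members passed throughout. Between cell lines, 7 members passed, 4 to 5 with 1 library left out and 5 to 7 under the other alternatives; the replicate block left 6. With n = 2 per group, and GTF3A at 25 to 56 reads in H9 libraries, small changes there were not detectable. The cause of these shifts was not tested.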
